A study of Mus musculus with 3 samples.

Results

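The decidua of the mouse uterus at pregnancy day 7.5 held spots in which a single transcript, Prl8a2, made up at least 60000 of every 1000000 molecules counted. The frozen sections were read on 10x Visium slides, where a spot takes up RNA from several neighbouring cells and tags it with its own barcode. A spot entered this set with at least 1000 unique molecular identifiers (UMIs, which count captured molecules), at least 60000 CPM of Prl8a2 (UMIs of a gene per 1000000 UMIs of the spot), and a summed CPM under 1000 of 4 trophoblast genes, Prl3d1, Prl4a1, Hand1 and Plac1. Of 3939 kept spots, 326 met this rule. The library of replicates 1 and 2 had 241 of them among 1773 spots, replicate 3 had 17 among 1080 and replicate 4 had 68 among 1086.

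The series title names the uterine microenvironment in early pregnancy as its subject, and all libraries came from a single group of pregnant females with no treatment named, mated with stud males and, per the labels, kept with littermates until 8 weeks old, and fed normal chow. The first library held sections of biological replicates 1 and 2 in 1 matrix and counted as 1 sample, so n is 3. Values given as 3 numbers are those of the library of replicates 1 and 2, of replicate 3 and of replicate 4, in that order. Library totals were 16915926, 27279702 and 29953072 UMIs. The Prl8a2-dominated spots held 2657857, 398715 and 2207202 of them. A typical Prl8a2-dominated spot had at the median 9578, 23821 and 31822.5 UMIs, against 7916, 26839 and 27664 in the other kept spots. Pairs of libraries shared 780, 676 and 825 spot barcodes, which come from the fixed set printed on the slides, and 29 barcodes of Prl8a2-dominated spots occurred in both the first library and replicate 4. Replicate 3 stood apart by its 17 spots, so values that rest on it carry the largest counting error.

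Decidualization turns fibroblast-like stromal cells of the uterus into large secretory cells around the implanted embryo, under progesterone and with Bmp2, Wnt and Hand2 as known regulators. In rodents the prolactin gene has been duplicated many times, and the resulting family is secreted by decidual cells and by trophoblast cells of the placenta. Prl8a2 encodes decidual prolactin-related protein, a product of the decidua, and Prl3c1 encodes another decidual member, while Prl3d1 and Prl4a1 are made by trophoblast.

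The share of kept spots that were Prl8a2-dominated was 13.6% (exact 95% interval 12.03 to 15.28%) in the library of replicates 1 and 2. In replicate 3 it was 1.57% (0.920 to 2.51%) and in replicate 4 it was 6.26% (4.90 to 7.87%). The mean was 7.14% ± 6.06 (SD, n = 3). These intervals cover counting error of spots only, the libraries did not overlap in them, and how much decidua each section held was not used here. Prl8a2 chose the spots, so its levels are a description. Its CPM of all UMIs had a lowest value of 60777, a median of 123244 and a highest value of 229749 in the first library. In replicate 3 these were 61020, 62872 and 80706, and in replicate 4 they were 60018, 86238 and 136614. The spots of replicate 3 thus sat close to the threshold, while those of the first library spread widest.

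Prl8a2 took 12.6, 6.51 and 8.97% of all UMIs in the Prl8a2-dominated spots, against 0.873, 0.668 and 0.737% in the other kept spots. The Prl8a2-dominated spots held 73.0, 12.6 and 49.2% of each library's Prl8a2 UMIs, so in replicate 3 most Prl8a2 lay in spots under the threshold. The 3 spots just inside the threshold had 60777, 60890 and 60991 CPM in the first library, 61020, 61061 and 61096 CPM in replicate 3 and 60018, 60555 and 60791 CPM in replicate 4. Those just outside had 59672, 58286 and 58046 CPM, then 57938, 57902 and 56954 CPM, then 58982, 58426 and 56391 CPM. There was no gap at the threshold. The trophoblast limit barred 10, 0 and 1 further spots, and 182, 13 and 49 of the chosen spots had no UMI of the 4 trophoblast genes.

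**Figure D1:**
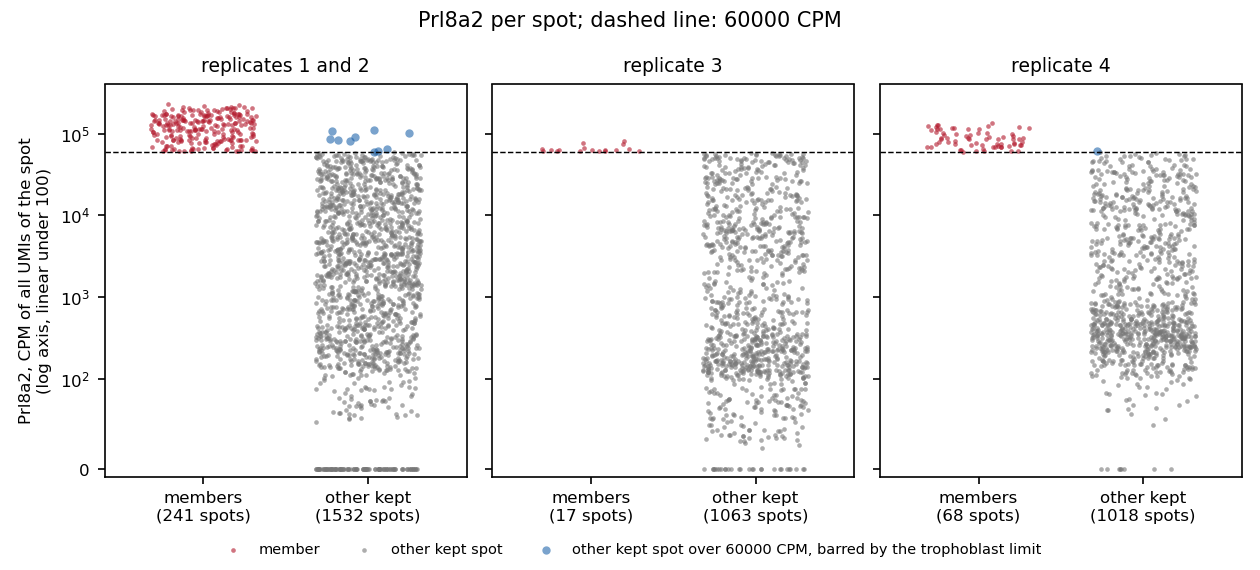
Each point is a kept spot, placed by its Prl8a2 level in CPM of all its UMIs (logarithmic axis, linear under 100), with Prl8a2-dominated spots (members) left of the other kept spots in each library and the 60000 CPM threshold dashed. The Prl8a2-dominated spots reach 229749 CPM in the library of replicates 1 and 2 but only 80706 CPM in replicate 3, and 11 spots over the threshold are barred by the trophoblast limit.

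Prl8a2 lies on mouse chromosome 13 (GRCm38, chr13:27345673-27354216, plus strand) within the cluster of prolactin family genes. Prl3c1 (chr13:27196659-27203749) and Prl6a1 (chr13:27312627-27319252) lie on the plus strand, and Prl7a2 (chr13:27658584-27668036) and Prl8a1 (chr13:27573922-27582171) on the minus strand. Promoters of 22 of the 26 family genes, not including Prl8a2, were matched in RefSeq (GRCm38.p6). The 4 below belong to family genes that were higher in the Prl8a2-dominated spots, and they show the only matches among those genes to 5 motifs searched on both strands. Each holds the 250 bases before the annotated start, 5′ to 3′ on the gene's strand. Capitals mark TTCNNNGAA, the motif of STAT5, which acts downstream of the prolactin receptor, in the first 3, and TGANTCA, the AP-1 motif, in Prl7a2. Prl3c1 and Prl6a1 have 2 listed starts each, of which 1 is shown. The second window of Prl6a1 holds the same STAT5 match, and that of Prl3c1 (chr13:27198653-27198902) holds no match to any of the 5 motifs.
Prl3c1: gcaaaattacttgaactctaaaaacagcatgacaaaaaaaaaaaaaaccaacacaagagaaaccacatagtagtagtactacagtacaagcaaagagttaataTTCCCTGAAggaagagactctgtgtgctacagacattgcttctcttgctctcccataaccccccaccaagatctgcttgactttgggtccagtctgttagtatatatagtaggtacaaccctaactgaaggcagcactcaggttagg
Prl6a1: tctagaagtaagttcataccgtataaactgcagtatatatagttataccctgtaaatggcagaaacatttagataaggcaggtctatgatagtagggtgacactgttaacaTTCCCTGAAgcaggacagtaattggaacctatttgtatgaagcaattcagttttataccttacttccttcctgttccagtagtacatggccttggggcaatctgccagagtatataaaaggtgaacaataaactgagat
Prl8a1: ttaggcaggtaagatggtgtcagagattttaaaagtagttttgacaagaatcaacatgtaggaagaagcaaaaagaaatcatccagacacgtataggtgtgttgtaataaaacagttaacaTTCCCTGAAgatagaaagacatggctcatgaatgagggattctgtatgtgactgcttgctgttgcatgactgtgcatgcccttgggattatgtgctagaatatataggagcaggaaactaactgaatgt
Prl7a2: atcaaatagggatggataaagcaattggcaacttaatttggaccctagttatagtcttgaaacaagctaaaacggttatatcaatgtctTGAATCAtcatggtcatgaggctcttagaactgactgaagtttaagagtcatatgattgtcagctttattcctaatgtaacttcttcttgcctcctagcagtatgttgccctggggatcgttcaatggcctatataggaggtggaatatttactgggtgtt
These stretches are chr13:27196410-27196659 for Prl3c1, chr13:27312365-27312614 for Prl6a1, chr13:27582172-27582421 for Prl8a1 and chr13:27668037-27668286 for Prl7a2. The STAT5 motif began 147, 139 and 129 bases before the start shown for Prl3c1, Prl6a1 and Prl8a1, with the same 9 letters in all 3. No match of different motifs overlapped another in these 4 stretches. The STAT5 motif occurred in 5 of the 22 family genes, each counted once over all its windows. Besides the 3 shown, these were Prl2a1, called lower in the Prl8a2-dominated spots, and Prl8a8, which had no UMI in any kept spot. Of 32851 single promoter windows of the same length, 7.02% held the STAT5 motif. The counts and shares that follow use these same, unlike units. TGANTCA occurred in 7 of the 22 and in 6.75% of all promoters, and in Prl7a2 it lay 161 bases before the start. Of these 7 genes only Prl7a2 was called higher. The other motifs searched were ACANNNTGT of the progesterone or glucocorticoid receptor (4 of 22, and 5.84% of all), TGTTTAC of forkhead factors (1 of 22, and 3.17%) and TTGCNNAA of C/EBP (2 of 22, and 9.56%). None of these 3 occurred in the 7 family genes that were higher. A match describes letters in this window, not a site that is used.

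Beyond Prl8a2, the prolactin gene that marked these spots was Prl3c1. From here on, levels are CPM of UMIs counted without Prl8a2, and log2 fold changes are those of edgeR's quasi-likelihood test on UMI sums per library and set of spots, with the library as a block, the 5 genes of the rule left out and Benjamini-Hochberg adjustment over all genes tested. A gene was called when its adjusted p was under 0.05 and its log2 fold change at least 1 in size. Prl3c1 stood at 11560, 4295 and 23990 CPM in Prl8a2-dominated spots, against 247, 157 and 454 CPM in the other kept spots. The groups did not overlap, and the log2 fold change was 5.92 ± 0.17 (SE; adjusted p = 3.9e-14). Within the Prl8a2-dominated spots Prl3c1 also tracked Prl8a2, with a Spearman's rho across spots of 0.917, 0.419 and 0.911 (241, 17 and 68 spots that share a library and its depth). The counts of these genes did not choose the spots, but spots chosen by Prl8a2 share tissue, so a called gene describes where it lay.

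Of the 26 family genes in the files, 9 had at least 50 UMIs in the Prl8a2-dominated spots and 8 had none there. Besides the rule's genes, 13 passed the filter on low counts, which a gene can pass through its level in either set. Of these, 7 were higher and 2 lower in the Prl8a2-dominated spots, where 12.3% of all 12821 genes tested were higher and 18.6% lower. Prl7a2 (46.1, 2.68 and 110 CPM, against 2.83, 3.18 and 5.01 CPM) had a log2 fold change of 4.47 ± 0.35. Prl8a9 (358, 16.1 and 682 CPM, against 93.8, 113 and 247 CPM) had one of 1.59 ± 0.40. Both were high in the first library and replicate 4, and below the other kept spots in replicate 3, so their groups overlapped. Prl7d1, Prl2c5, Prl8a1 and Prl6a1 were called higher with log2 fold changes of 1.31 to 2.08. Each was below the other kept spots in replicate 3 as well. There the Prl8a2-dominated spots held 1 UMI each of Prl7a2, Prl7d1 and Prl2c5, and 0 of Prl8a1. They held 6 UMIs of Prl8a9 and 11 of Prl6a1. For Prl7a2, Prl7d1 and Prl8a1, also low in the other kept spots, such counts cannot tell lower from equal. The same holds for Prl6a1, at 27.6 CPM of all UMIs in replicate 3, against 34.3 CPM. Prl2c5 shares 47.5% of its 30-base words with other genes, most with Prl2c2, so its reads may be split between copies, while Prl3c1 and Prl7a2 shared none.

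The lower family genes were Prl2a1 (2.15, 0 and 1.49 CPM, against 3.19, 21.8 and 42.1 CPM; log2 fold change −2.90 ± 0.56) and Prl5a1 (9.47, 2.68 and 1.99 CPM, against 11.8, 31.6 and 32.5 CPM; −1.32 ± 0.46). Prl7a1 was at 46.9, 37.6 and 10.9 CPM, against 69.4, 94.8 and 83.1 CPM, and was not called (−0.89 ± 0.28). The other kept spots included 45, 42 and 57 spots over the trophoblast limit. When these were left out, an alternative chosen after seeing the data, 10 of 12 tested family genes were higher and none lower. Prl2a1 and Prl7a1 then had log2 fold changes of 0.30 and 1.47, so the direction of both turned. Without the library of replicates 1 and 2, only Prl3c1 and Prl7a2 of 15 tested were higher and 5 were lower, and the list's median turned to −0.76 from 1.31. Counts of the family therefore rested on that library and on spots with trophoblast genes, while Prl3c1 was called higher in both refits.

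**Figure D2:**
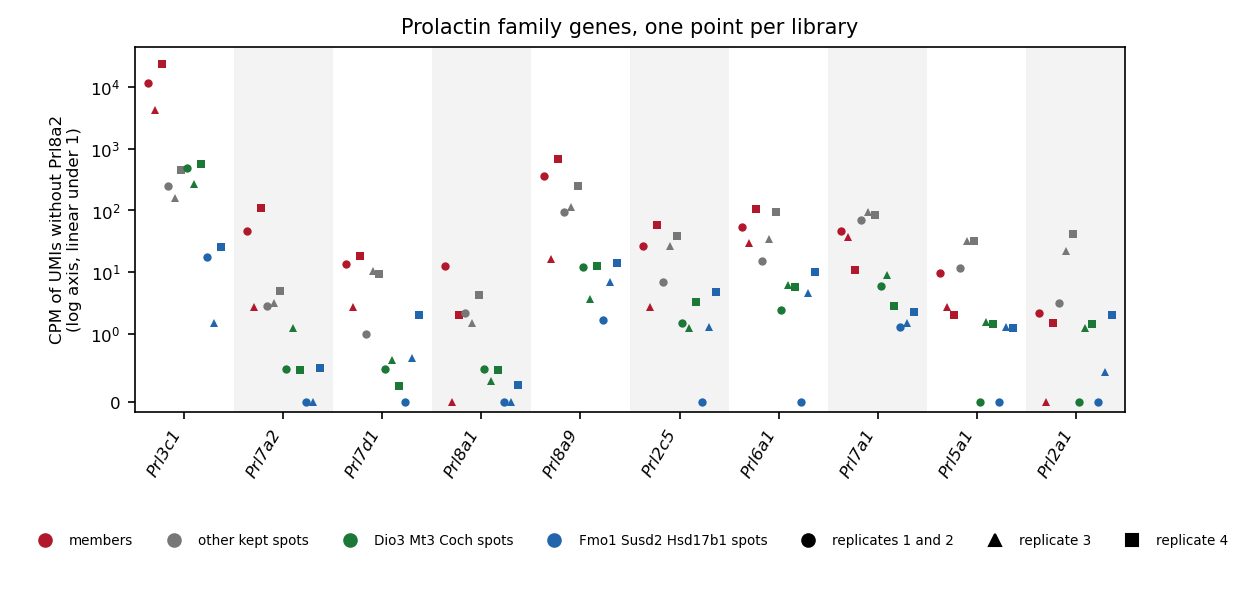
Levels of 10 prolactin family genes in CPM of UMIs without Prl8a2 (logarithmic axis, linear under 1), with 1 point per library in Prl8a2-dominated spots (members), the other kept spots and the 2 sets of comparison spots described further on. Prl3c1 lies at 4295 CPM or more in the Prl8a2-dominated spots and at 565 CPM or less elsewhere, while most other family genes are at or below the other kept spots in replicate 3.

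The receptor side of the prolactin pathway was low. Prlr, the prolactin receptor, had 6 UMIs in all Prl8a2-dominated spots together (2.15, 0 and 0.498 CPM, against 7.44, 3.26 and 4.43 CPM; log2 fold change −1.66 ± 0.59, adjusted p = 0.028). Of 9 receptor signalling genes tested, none was higher and 5 were lower. These were Prlr, the transcription factors Stat5a and Stat5b, and the feedback inhibitors Cish and Socs1. Stat5a, for example, was at 2.15, 0 and 0 CPM, against 9.99, 8.61 and 7.77 CPM. At these counts, fewer cells with the transcript and fewer transcripts per cell cannot be told apart, which holds for every gene of a spot.

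The genes whose CPM ranked most like that of Prl8a2 across all kept spots were Psap (mean Spearman's rho over the 3 libraries 0.902), Fabp4 (0.860), Cryab (0.857), Cstb (0.833), Cyb5a (0.825) and Hopx (0.815), the first 6 of 2501 genes with at least 1000 UMIs in every library. The spots share library, depth and the same total. These genes were taken for their likeness to Prl8a2, which chose the spots. Their differences between the sets, and the lack of overlap, are therefore a description and no test. Psap encodes prosaposin, the precursor of lysosomal proteins that help degrade sphingolipids. It reached 44740, 63810 and 54930 CPM in the Prl8a2-dominated spots, against 5707, 7468 and 6868 CPM in the other kept spots, a log2 fold change of 3.59 ± 0.07. Its level did not overlap between the sets and, unlike Prl3c1, varied little among libraries.

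Fabp4, a fatty acid binding protein, stood at 7471, 7498 and 9102 CPM, against 445, 509 and 757 CPM (log2 fold change 4.41 ± 0.10). Cryab, a small heat shock protein known from mouse decidua, was at 15470, 20160 and 16560 CPM, against 2043, 2333 and 2703 CPM (3.45 ± 0.09). Dbi, the acyl-CoA binding protein, was at 14050, 25700 and 16190 CPM, against 1495, 2908 and 1972 CPM (3.70 ± 0.08). None of these 3 overlapped between the sets. Cstb (an inhibitor of cathepsins), Cyb5a (cytochrome b5) and Hopx (a homeodomain cofactor) had log2 fold changes of 2.90, 2.96 and 3.28, again without overlap. Other abundant transcripts differed less. S100a6 was called higher at 23470, 24220 and 33510 CPM, against 12760, 12880 and 18230 CPM. Ctla2a, a cathepsin inhibitor abundant in decidua, was at 28040, 14080 and 23130 CPM, against 27290, 24460 and 24970 CPM, and was not called (0.28, a direction that turned with the scaling); it shares 38.4% of its 30-base words with other genes.

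Grouping all kept spots under the trophoblast limit by their Prl8a2 level gave 5 steps, of which the last was the Prl8a2-dominated spots. Psap was at 1086, 4587, 12080, 21120 and 44740 CPM from the lowest step to the last in the first library. Prl3c1 was at 12.4, 121, 492, 990 and 11560 CPM. Both were higher at each step than at the one before in every library, as were Cryab, Fabp4, Dbi, Htra1, Slc5a5, Tnnc1, Crct1, Hand2, P4hb and Erv3. Col3a1, a collagen of loose stroma, was lower at each step, with 50.8 CPM in the last step of the first library, against 1941 CPM in its lowest Prl8a2 step. Some genes were highest in between. Srd5a1, steroid 5-alpha-reductase, was at 93.1, 290, 865, 731 and 370 CPM in the first library, and Ctla2a and Prl7a1 also had their highest level in a step before the last in every library. These steps used Prl8a2 itself and are a description.

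**Figure D3:**
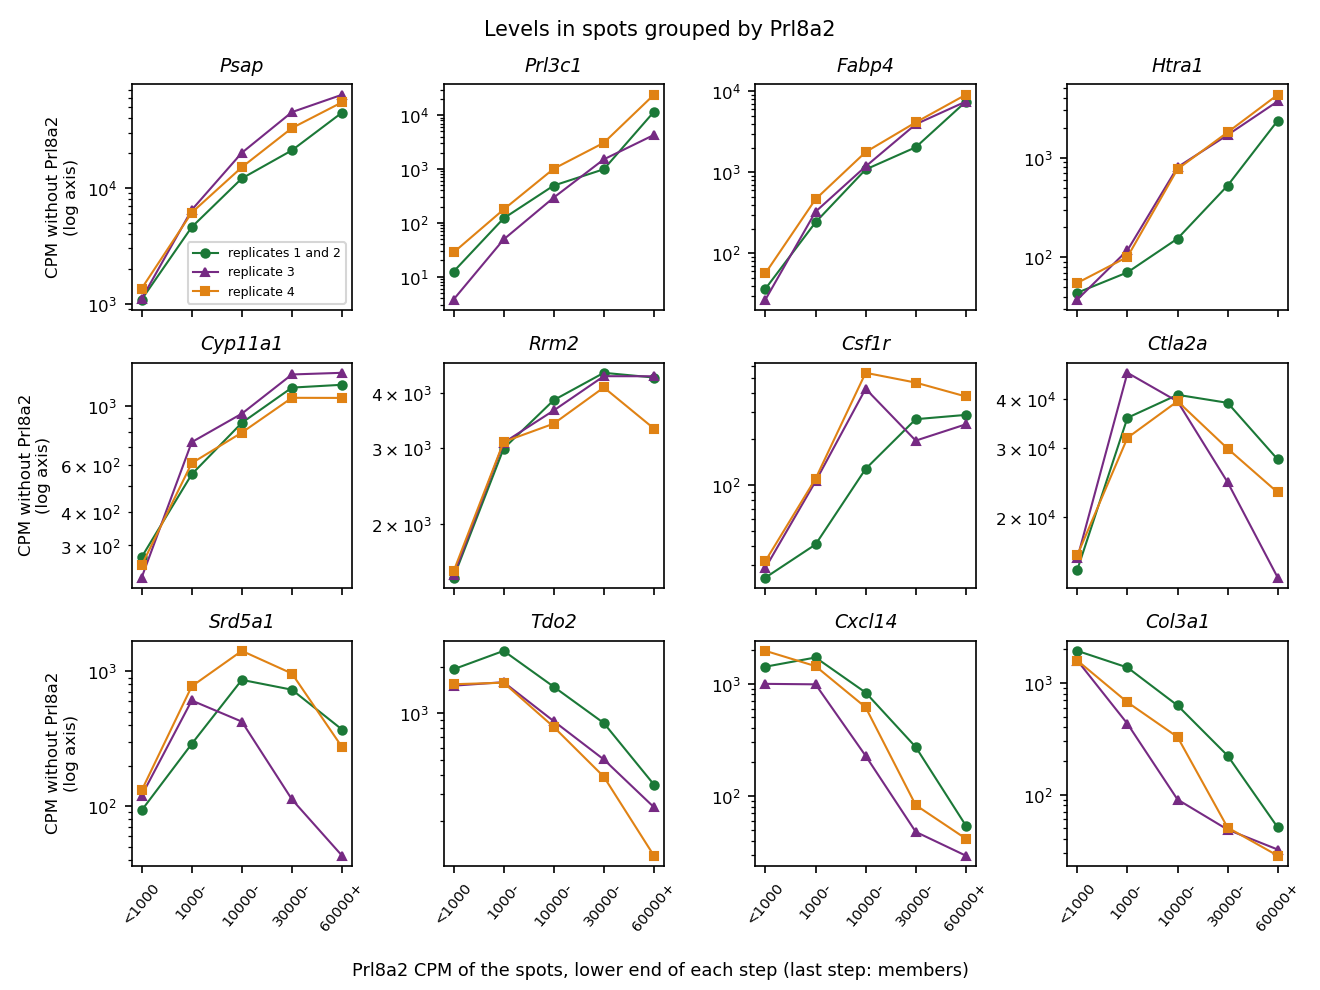
Levels of 12 genes in CPM of UMIs without Prl8a2 (logarithmic axes) in spots grouped by their Prl8a2 CPM, with 1 line per library and the Prl8a2-dominated spots as the last step. Psap, Prl3c1, Fabp4 and Htra1 are higher at each step, Col3a1 is lower at each step, and Ctla2a and Srd5a1 peak before the last step.

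In all, 1582 genes were higher and 2389 lower in the Prl8a2-dominated spots than in the other kept spots, 31.0% of those tested. These are 12.3 and 18.6% of all genes tested, the shares to set beside the counts of the lists below. The scaling weighed on this split. The trimmed mean scaling (TMM) set the median log2 fold change of all genes at −0.12. Without it, and with totals that leave out Prl8a2, the median shifted by −0.57 and 798 genes were higher and 4468 lower. With totals that include Prl8a2 it shifted by −0.72, with 689 higher and 5219 lower. Log2 fold changes near 1 are therefore relative to that choice, and every named gene whose direction turns with it is marked as such.

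The largest rises were genes of several kinds, and no shared function was tested. Slc5a5, the sodium iodide symporter that brings iodide into thyroid cells, was at 110, 311 and 187 CPM, against 4.61, 11.2 and 4.76 CPM (log2 fold change 5.48 ± 0.18). Lvrn, the aminopeptidase laeverin, was at 107, 107 and 178 CPM, against 4.32, 5.02 and 7.30 CPM (5.13 ± 0.17). Klk7, a kallikrein protease, was at 153, 515 and 144 CPM, against 7.87, 24.4 and 7.26 CPM (4.90 ± 0.14). All 3 were separated from the other kept spots in every library. Tnnc1, a troponin C of slow and cardiac muscle, had 834, 309 and 2098 CPM, against 31.8, 23.1 and 96.3 CPM (4.90 ± 0.17), although all 14 smooth muscle markers tested were lower. Others had far lower levels in replicate 3, though still above the other kept spots. Those levels of replicate 3 rest on a few UMIs over 17 spots. Tpsab1, a mast cell tryptase, was at 38.3, 5.37 and 109 CPM, against 1.70, 0.375 and 2.91 CPM, Retn, resistin, at 70.6, 8.05 and 230 CPM, against 4.39, 0.599 and 7.30 CPM, and Pnoc, the nociceptin precursor, at 48.2, 5.37 and 75.2 CPM, against 1.84, 0.637 and 2.14 CPM. The kininogens Kng1 and Kng2 also rose, and share 27.2 and 31.4% of their 30-base words with other genes, mainly with each other.

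At the other end, several genes had no UMI in any Prl8a2-dominated spot. Against a floor of 3 counts over the group, and in CPM without scaling factors, Syt13 was at least 35.8-fold lower, Ndp, a ligand of the Wnt receptor Fzd4, at least 32.2-fold, Chl1, a cell adhesion molecule, at least 29.0-fold, and Klrd1, a receptor of natural killer cells, at least 21.7-fold lower than in the other kept spots. These folds, and the ratio that follows, would be smaller under TMM. Its factors were 0.863, 0.836 and 0.770 in the Prl8a2-dominated spots, against 1.243, 1.201 and 1.205. Hsd11b2, which inactivates glucocorticoids, had 2 UMIs, a ratio of 89.5 (24.8 to 739, counting error only) between the other kept spots and the Prl8a2-dominated ones. Cxcl14, a chemokine, was abundant enough to measure in both sets, at 54.7, 29.5 and 41.8 CPM, against 1289, 802 and 1382 CPM (log2 fold change −4.21 ± 0.14).

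Genes of the decidual list divided. Of 27 tested, 12 were higher and 6 lower, with a median log2 fold change of 0.85 against −0.12 over all genes. The higher ones included Erv3 (3.68 ± 0.11), Aoc1 (2.46 ± 0.10), Hand2 (1.88 ± 0.10), Cebpb (1.77 ± 0.12) and Bmp2 (1.08 ± 0.11). Hand2, a transcription factor induced by progesterone in stroma, was at 1003, 1210 and 1263 CPM, against 411, 482 and 505 CPM. Bmp2, a growth factor needed for decidualization, was at 575, 400 and 446 CPM, against 382, 260 and 351 CPM. Both were higher in all 3 libraries without overlap between the sets. The lower ones included Tdo2, tryptophan dioxygenase, at 346, 247 and 120 CPM, against 1912, 1321 and 1270 CPM (−2.21 ± 0.15), and Hoxa10, a homeobox gene needed for decidualization, at 174, 150 and 84.1 CPM, against 461, 347 and 389 CPM (−1.07 ± 0.15). Dio3, which inactivates thyroid hormone and marks other decidual spots of this series, was at 353, 69.8 and 115 CPM, against 647, 629 and 660 CPM (−1.44 ± 0.26). Wnt6, Ccnd3 and Hoxa11 were lower too. The spots were thus decidual by these markers and by Prl3c1, with part of the decidual list lower; no stage of maturation was tested.

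The hormone receptors and steroid enzymes pointed both ways. Esr1, the oestrogen receptor, was at 11.6, 18.8 and 8.46 CPM, against 84.8, 82.8 and 80.5 CPM (log2 fold change −2.32 ± 0.21), and the receptor chaperone Fkbp4 was also lower. Pgr, the progesterone receptor, was at 42.6, 37.6 and 41.3 CPM, against 53.6, 48.8 and 46.7 CPM, was not called (0.30), and its direction turned with the scaling. Of 18 genes of this pathway, 3 were higher (Hand2, Sgk1 and Errfi1) and 3 lower. These counts lay near the shares of all genes tested, 12.3% higher and 18.6% lower. Among 14 steroid enzymes tested, 4 were higher and 2 lower, with a median of 0.04 that was −0.53 and −0.67 without scaling factors (totals without and with Prl8a2). Hsd11b1, which regenerates active glucocorticoid, was at 409, 1081 and 321 CPM, against 123, 193 and 115 CPM (2.46 ± 0.15). Its counterpart Hsd11b2 was called lower, on the few UMIs given above. Cyp11a1, which makes pregnenolone from cholesterol, was at 1202, 1333 and 1073 CPM, against 523, 479 and 478 CPM (1.84 ± 0.10).

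Cholesterol genes were higher in 10 of 26 cases and lower in 3, with a median of 0.69 that was −0.04 with totals including Prl8a2. Lss, lanosterol synthase, was at 174, 228 and 154 CPM, against 37.1, 36.3 and 35.4 CPM (2.88 ± 0.14), and Npc2, which moves cholesterol out of lysosomes, at 5548, 5462 and 6292 CPM, against 1943, 1728 and 1903 CPM (2.20 ± 0.09). Both were higher in every library without overlap, while 13 of the 26 genes were not called. In lipid handling, 5 of 16 genes were higher, among them Fabp4, Lipg (endothelial lipase, 3.84 ± 0.14) and Plin2, and 4 were lower. Of all genes tested, 12.3% were higher and 18.6% lower.

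Of 40 genes tested of the secretory pathway and the unfolded protein response, 27 were higher, none was lower and 13 were not called, with a median log2 fold change of 1.08. P4hb, protein disulfide isomerase, was at 2151, 2007 and 2674 CPM, against 784, 734 and 799 CPM (2.12 ± 0.11). Dnajb9, a chaperone of the endoplasmic reticulum, was at 227, 207 and 219 CPM, against 70.7, 50.5 and 62.1 CPM (2.40 ± 0.13). Xbp1, a transcription factor of that response, was at 426, 590 and 428 CPM, against 243, 233 and 236 CPM (1.56 ± 0.12). None of the 3 overlapped between the sets. Hspa5, the main chaperone, missed the minimum fold change (0.98 ± 0.10). Since these changes lie near the threshold, the count depended on the settings. Under another scaling, 2 genes were higher without scaling factors and 19 with DESeq2's size factors. With other libraries or spots, 14 were higher without replicates 1 and 2 and 3 at a Prl8a2 minimum of 80000 CPM. At that minimum replicate 3 held 1 spot and the median over all genes shifted by −0.582, much as without scaling factors. The median of the secretory list stayed positive, at 0.37 or above, in each of these refits.

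Matrix was lower and a few matrix proteases were higher. Of 22 genes of fibrillar collagens and stromal matrix, 18 were lower and none higher, with a median of −3.76. Col1a2 was at 45.2, 21.5 and 19.4 CPM, against 1476, 944 and 1081 CPM (−4.80 ± 0.15), and Spp1, osteopontin, at 0.861, 2.68 and 3.48 CPM, against 263, 594 and 353 CPM (−6.69 ± 0.24). Of 19 matrix proteases and inhibitors, 8 were higher and 5 lower, with a median of 0.81 that was −0.58 without replicates 1 and 2. Htra1, a secreted serine protease, was at 2362, 3691 and 4296 CPM, against 162, 296 and 366 CPM (4.25 ± 0.10), Adamts5, an aggrecanase, at 356, 832 and 518 CPM, against 29.0, 55.8 and 41.2 CPM (4.29 ± 0.12), and Mmp2, a gelatinase, at 14.2, 2.68 and 5.97 CPM, against 179, 130 and 141 CPM (−3.53 ± 0.22). All 3 were separated between the sets. Angpt2, a vessel-destabilizing ligand, was higher by 1.24 ± 0.11 on the log2 scale.

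Genes of dividing cells were low. Of 25 genes of DNA replication and mitosis, 21 were lower and 1 was higher. Mki67, a proliferation marker, was at 9.04, 0 and 5.97 CPM, against 63.0, 69.2 and 57.7 CPM (−2.61 ± 0.28), and Ccnb1, the mitotic cyclin, at 4.74, 5.37 and 3.98 CPM, against 48.2, 39.7 and 40.3 CPM (−2.72 ± 0.26). The exception was Rrm2, a subunit of ribonucleotide reductase, at 4347, 4376 and 3319 CPM, against 2531, 2202 and 2329 CPM (1.32 ± 0.09). Decidual cells of the mouse become polyploid, and of 19 genes listed for that cycle Mdm2 and Rrm2 were higher and 7 lower, among them Ccnd3 and Cdkn1c. The share of higher ones lay near the 12.3% over all genes tested, of which 18.6% were lower. Of 22 glycolysis and hypoxia genes, 10 were lower, with Slc2a1, a glucose transporter, at 50.4, 21.5 and 29.9 CPM, against 286, 160 and 278 CPM (−2.27 ± 0.16), and Bnip3, a hypoxia-induced mitophagy receptor, was the 1 higher gene (1.69 ± 0.13). None of 23 nuclear genes of oxidative phosphorylation was called.

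Of 19 Wnt ligands, secreted antagonists and related genes, 13 were lower and 3 higher. The lower ones were 4 ligands (Wnt2, Wnt5a, Wnt5b and Wnt6) and 9 antagonists or R-spondins, such as Sfrp1 and Rspo3. Wnt5a had 8 UMIs in the Prl8a2-dominated spots (0, 2.68 and 3.48 CPM, against 115, 106 and 99.2 CPM; −5.38 ± 0.40). Wif1, a secreted inhibitor that binds Wnts, was at 15.9, 5.37 and 42.3 CPM, against 0.354, 0.112 and 0.690 CPM (6.35 ± 0.40), and Notum, which removes the lipid from Wnts, at 80.9, 93.9 and 58.2 CPM, against 32.03, 37.1 and 28.2 CPM (1.80 ± 0.16). The remaining one was Lef1, a transcription factor that acts with Wnt signals. Porcn, the enzyme that adds this lipid, was among the largest rises at 108, 448 and 227 CPM, against 8.01, 20.1 and 12.2 CPM (4.74 ± 0.16). Of 25 Bmp and activin genes, 4 were higher (Bmp8a, Inhba, Smad7 and Bmp2) and 9 lower, including the ligand Bmp4, the antagonists Nog and Fst and the target Id3. Of 15 genes that handle retinoids and thyroid hormone, Crabp2 and Dio2 were higher and 8 lower, among them Aldh1a2, which makes retinoic acid (1.72, 5.37 and 1.99 CPM, against 72.7, 73.4 and 67.0 CPM). Dio2, which activates thyroid hormone, rested on 18 UMIs.

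**Figure D4:**
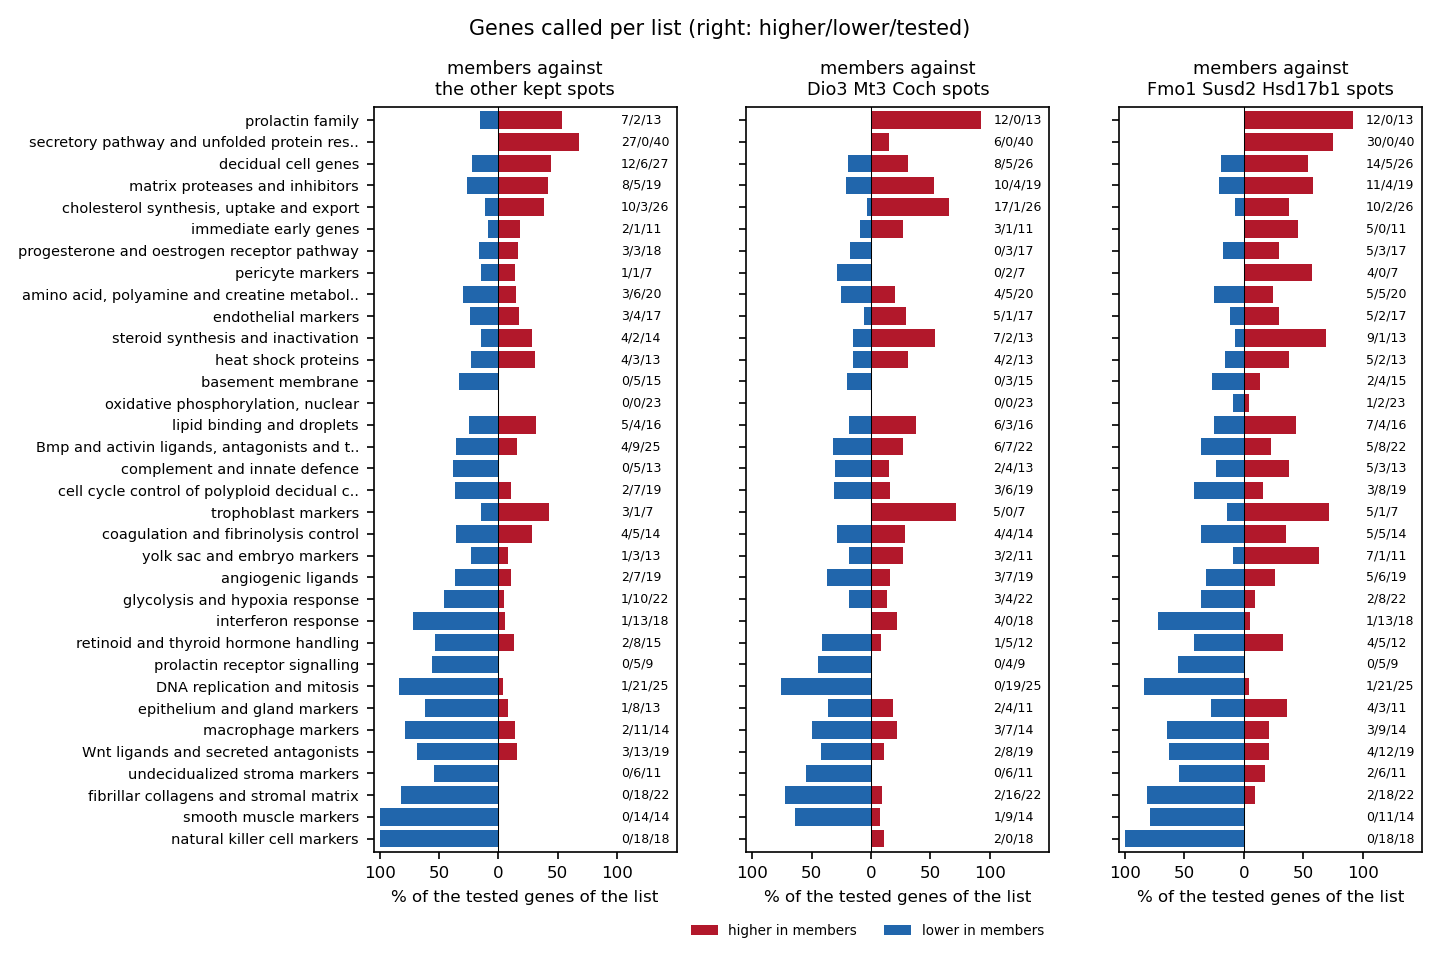
Share of the tested genes of each list that were called higher (right of 0) or lower (left of 0) in Prl8a2-dominated spots (members), in % of the list, for the comparisons with the other kept spots and with both sets of comparison spots, beside the counts higher, lower and tested. Secretory genes are higher in 27 of 40 cases against the other kept spots (2 of 40 without scaling factors), and all 18 natural killer cell markers tested are lower there.

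Markers of other cells of the uterus were scarce. The summed level of 19 natural killer cell markers was 48.7, 126 and 64.7 CPM in the Prl8a2-dominated spots, with 6, 7 and 8 of them at 0, against 1796, 8423 and 3711 CPM in the other kept spots. The granzyme Gzmf, for example, was at 2.15, 16.1 and 6.47 CPM, against 347, 1692 and 665 CPM (−6.28 ± 0.18). Summed smooth muscle markers were at 868, 421 and 411 CPM, against 8231, 3995 and 5324 CPM, adult globins at 460, 204 and 204 CPM, against 3283, 988 and 2147 CPM, and epithelial markers at 205, 64.4 and 152 CPM, against 1263, 569 and 1335 CPM. Each of these sums was lower in every library. Endothelial markers were at a like level in both sets, with 1202, 990 and 1216 CPM, against 1186, 1326 and 1181 CPM. Of 17 tested, 3 were called higher (Plvap, Pecam1 and Cdh5, the last 2 by 1.42 ± 0.14 and 1.36 ± 0.18) and 4 lower (Lyve1, Tek, Vwf and Cldn5). These counts lay near the shares of all genes tested, 12.3% higher and 18.6% lower.

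Macrophage markers did not move as 1 group. Of 14 tested, 11 were lower, such as the complement gene C1qa at 4.30, 2.68 and 0.995 CPM, against 44.9, 44.7 and 41.9 CPM (−3.43 ± 0.33), and Mrc1, the mannose receptor, with 1 UMI. Csf1r, the receptor of colony stimulating factor 1, was higher at 288, 250 and 380 CPM, against 73.8, 114 and 187 CPM (1.95 ± 0.15), and so was the lysosomal protein Cd68 (99.0, 107 and 218 CPM, against 26.5, 45.3 and 56.2 CPM; 2.33 ± 0.16). Of 18 interferon response genes, 13 were lower and Rsad2 was higher. None of the 18 was lower than in the Dio3 Mt3 Coch spots described further on.

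Trophoblast markers need care because the rule limited 4 of their kind. The 16 listed summed to 432, 317 and 432 CPM in the Prl8a2-dominated spots, with 7, 10 and 6 of them at 0, against 346, 455 and 579 CPM. Prl3d1, a gene of the rule, was at 47.4, 5.02 and 22.7 CPM of all UMIs, against 83.1, 92.3 and 106 CPM. Of 7 tested outside the rule, 3 were higher and 1, Lgals9, was lower, with a median log2 fold change of −0.69. Tpbpa, a gene of the spongiotrophoblast, was at 71.0, 64.4 and 124 CPM, against 3.61, 10.6 and 22.8 CPM (3.63 ± 0.27), and Tfap2c, a transcription factor of trophoblast, at 78.8, 75.1 and 91.1 CPM, against 13.5, 27.0 and 34.6 CPM (2.40 ± 0.20). Both were higher in all 3 libraries without overlap. The part of trophoblast RNA in any of the differences above was not tested beyond the refit without trophoblast-rich spots. In that refit 1598 genes were higher and 2430 lower.

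To place the Prl8a2-dominated spots among the decidua, they were compared with spots ranked in the top 15% of each library for 3 genes, once for Dio3, Mt3 and Coch and once for Fmo1, Susd2 and Hsd17b1, taken from spots outside the set and under the trophoblast limit. Each held 512 spots. The rule's genes and these 6 were left out of the fit. Both comparisons share the Prl8a2-dominated spots with each other and with the comparison above, so their values stand side by side. Against the Dio3 Mt3 Coch spots, 1357 genes were higher and 1488 lower of 12087 tested, or 11.2 and 12.3% (23.5% in either direction). Against the Fmo1 Susd2 Hsd17b1 spots, 2098 were higher and 2673 lower, or 17.4 and 22.1% (39.5% in either direction). Without scaling factors, with totals that leave out Prl8a2, these were 952 and 2560 in the first case and 1233 and 5042 in the second.

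Psap, at 44740, 63810 and 54930 CPM in the Prl8a2-dominated spots, was at 12750, 16540 and 12240 CPM in the Dio3 Mt3 Coch spots and at 1072, 984 and 1167 CPM in the Fmo1 Susd2 Hsd17b1 spots (log2 fold changes 2.27 ± 0.12 and 6.29 ± 0.14). The 3 sets kept that order in every library. Erv3, Hopx and Aoc1 had the same order. Crct1, a gene named for cornified envelopes, was at 880, 502 and 1528 CPM, against 19.6, 8.21 and 23.2 CPM in the Dio3 Mt3 Coch spots, a log2 fold change of 6.18 ± 0.17. Tnnc1, Prl7a2 and Pnoc were likewise called higher, by log2 fold changes of 6.02, 6.78 and 7.49. All but 1 of the 13 prolactin family genes tested were higher in either comparison, but both sets were also chosen for few trophoblast genes. Natural killer markers were low in the Dio3 Mt3 Coch spots as well, with sums of 68.1, 113 and 77.4 CPM, and in the Fmo1 Susd2 Hsd17b1 spots they reached 3334, 8307 and 4957 CPM. Of 18 interferon response genes, 4 were higher and none lower than in the Dio3 Mt3 Coch spots. Against the Fmo1 Susd2 Hsd17b1 spots 1 was higher and 13 were lower. None of 5 adult globin genes tested was called in either comparison.

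Against the Dio3 Mt3 Coch spots the cholesterol list stood out by count, with 17 of 26 genes higher, 1 lower and a median of 1.59 (1.12 under the scaling that lowers it most). Sqle, squalene epoxidase, was at 85.2, 51.0 and 175 CPM, against 7.352, 6.997 and 11.3 CPM (4.03 ± 0.24). Idi1, isopentenyl-diphosphate isomerase, was at 16.8, 10.7 and 53.8 CPM, against 2.94, 3.96 and 6.33 CPM (3.09 ± 0.35). Both were higher in every library. Of 13 steroid enzymes 7 were higher, among them Cyp11a1 (1.07 ± 0.09), Hsd11b1 (1.14 ± 0.14) and Srd5a1 (2.18 ± 0.40), the last with 370, 42.9 and 275 CPM, against 45.1, 63.3 and 89.3 CPM, so that replicate 3 went the other way. Only 6 of 40 secretory genes were higher here, against 30 of 40 in the comparison with the Fmo1 Susd2 Hsd17b1 spots. Of all genes tested, 11.2 and 17.4% were higher in these comparisons. The medians of the secretory list were 0.67 and 1.22, or 0.21 and 0.42 under the scaling that lowers them most. The difference between the counts of secretory genes was not tested. Csf1r (4.47 ± 0.23), Cd68 (4.30 ± 0.24) and Angpt2 (3.98 ± 0.22) were higher than in the Dio3 Mt3 Coch spots.

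Lower than in the Dio3 Mt3 Coch spots were Tdo2 (346, 247 and 120 CPM, against 2293, 1964 and 2030 CPM; −2.95 ± 0.20), Gatm, which makes the creatine precursor (970, 451 and 271 CPM, against 5037, 3998 and 3863 CPM; −2.77 ± 0.21), and the metallothionein Mt4 (59.9, 153 and 81.6 CPM, against 1274, 1420 and 1729 CPM; −3.86 ± 0.37). Sfrp4, a secreted Wnt antagonist, fell by 4.28 ± 0.29 on the log2 scale. No library overlapped for these 4. Of 25 replication and mitosis genes, 19 were lower than in the Dio3 Mt3 Coch spots and 21 lower than in the Fmo1 Susd2 Hsd17b1 spots. Rrm2 was called only in the second comparison (1.92 ± 0.09), with 0.36 ± 0.09 and a direction that turned with the scaling in the first. Esr1, Wnt5a and Col3a1 were lower in both.

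**Figure D5:**
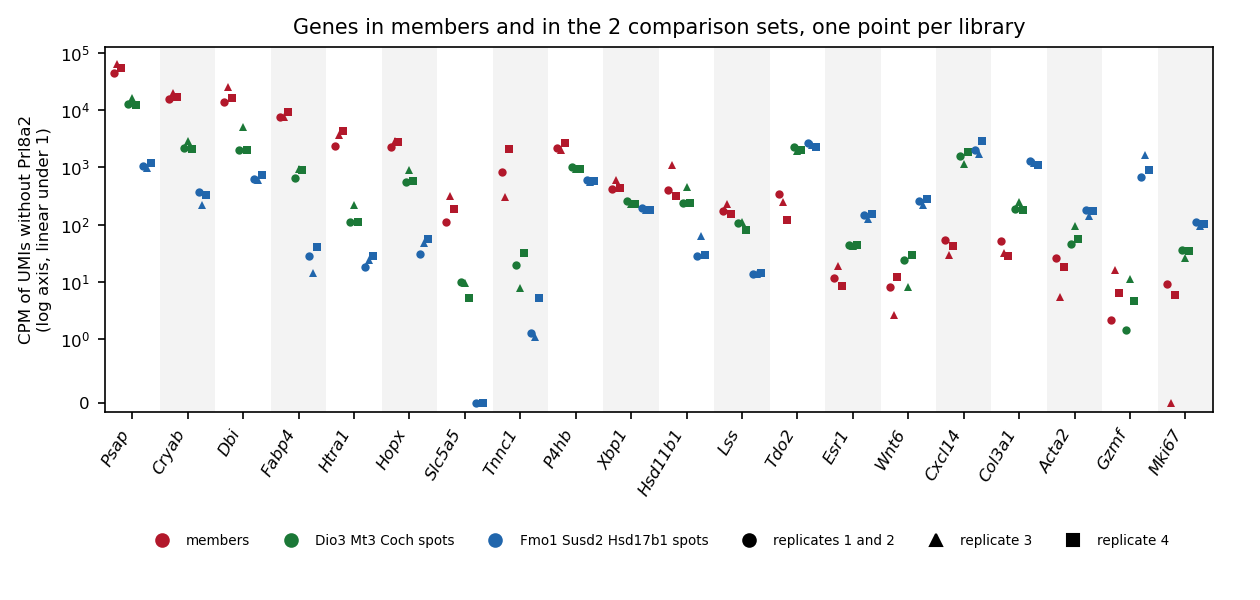
Levels of 20 genes in CPM of UMIs without Prl8a2 (logarithmic axis, linear under 1), with 1 point per library in Prl8a2-dominated spots (members), Dio3 Mt3 Coch spots and Fmo1 Susd2 Hsd17b1 spots. Psap and Hopx step down from the first set to the third, Tdo2 and Cxcl14 are lowest in the Prl8a2-dominated spots, and Gzmf is at 681 CPM or more in the third set and at 16.1 CPM or less in the others.

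The Prl8a2-dominated spots also differed among themselves. Beyond counting error, the coefficient of variation among spots of 1 library was 33.3, 17.0 and 23.0% for Psap and 116, 34.2 and 63.0% for Prl3c1. The most variable of 478 genes ranked was Mrgprg, a receptor of the Mas-related family, at 239, 159 and 195%, followed by Tfpi, the tissue factor pathway inhibitor, at 174, 141 and 117%. Crct1 (147, 111 and 111%) and Ctla2a (108, 54.8 and 96.9%) were also among the most variable. Psap, which followed Prl8a2 most closely across all kept spots, had within the Prl8a2-dominated spots a rho with Prl8a2 of 0.861, 0.0123 and 0.539.

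Spots above the median Prl8a2 level of their own library were compared with those at or below it, in 6 sums. Of 6791 genes tested, 3 were higher and 5 lower, or 0.0442 and 0.0736% (0.118% in either direction), and 900 had an unadjusted p under 0.05. Il13ra2, a decoy receptor of interleukin 13, was at 77.7, 6.10 and 265 CPM in the spots with more Prl8a2, against 15.6, 4.79 and 54.1 CPM in those with less (log2 fold change 2.41 ± 0.20, adjusted p = 0.0037). Arhgef6, a guanine nucleotide exchange factor, was at 352, 317 and 579 CPM, against 159, 201 and 270 CPM (1.13, adjusted p = 0.048), and Sh2d4a was also higher. Arhgef6 was higher in every library with more Prl8a2. Il13ra2 was higher in the first library and in replicate 4. In replicate 3, with 8 and 9 spots, its levels rest on too few UMIs to be ordered. Prl3c1 was at 20790, 4785 and 34560 CPM, against 3156, 3910 and 12890 CPM, higher in 3 of 3 libraries but not called (1.58 ± 0.39, adjusted p = 0.14).

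Srd5a1 was lower in the spots with more Prl8a2, at 141, 18.3 and 128 CPM, against 579, 62.3 and 428 CPM (−1.75 ± 0.16, adjusted p = 0.0048). Mrgprg was at 168, 85.3 and 36.9 CPM, against 478, 230 and 183 CPM (−1.64, adjusted p = 0.028). Masp1, a protease of the complement lectin pathway, was lower with a log2 fold change of −2.15, and Ldhd, D-lactate dehydrogenase, with −1.55. Each was lower in every library. The remaining gene, Pyy, peptide YY, was chosen after its values were seen, at 43.4, 0 and 21.4 CPM, against 149, 0 and 73.4 CPM (−1.63). These calls hang on single libraries: none held without replicates 1 and 2 (267 genes at an unadjusted p under 0.05) or without the library block (335), while leaving out replicate 3 gave 118 higher and 79 lower, and DESeq2 gave 7 and 2, with 4 of the 8 calls among them. Of the lists, a member was called here only for steroid enzymes, and that was Srd5a1.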

How the data were processed

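The deposited matrices hold UMI counts per gene and spot, made with Space Ranger 1.2.2 per the file headers, while Cell Ranger and the build mm10 stand in the submitters' processing notes. Spots with under 1000 UMIs were left out, no doublet caller was run, and gene positions come from GENCODE M21. UMIs were summed per library and set of spots and fitted with edgeR 4.0.16 (R 4.3.3; quasi-likelihood test, TMM scaling, its default filter on low counts, library as block, Benjamini-Hochberg adjustment), and SE is the log2 fold change over the root of F. The fit was tested on simulated data. DESeq2 1.42.0 and other settings served as alternatives. Levels, ranks and intervals were computed with Python 3.11.15, numpy 2.4.6, pandas 2.3.3 and scipy 1.17.1. The labels do not say that replicates 1 and 2 can be told apart, so the replicates are 3 libraries. With the library as block, p-values measure how the difference between sets of spots varied over these libraries. That spread was estimated with information shared over all genes, and over 4 sets of spots in the fit with the comparison spots. Very small p-values rest on that sharing.

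The Prl8a2-dominated spots and the 38 gene lists were chosen with earlier results of these data known. Named genes were the 15 largest rises and 10 largest falls of the first comparison and 8 of each in the others (same sign in every library, mean log2 CPM at least 3), up to 4 called genes per list with the smallest p, prolactin genes with at least 50 UMIs, the 10 with the highest level and the 6 most like Prl8a2. A few others were named to describe a list. Some members of these lists are not reported here.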

Additional observations from a re-analysis of the deposited data

How the results depend on the processing

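Counts over all genes depended on the threshold and on depth. Without a minimum fold change 6093, 5235 and 7262 genes were called against the other kept spots, the Dio3 Mt3 Coch spots and the Fmo1 Susd2 Hsd17b1 spots, and with each spot thinned to 3000 UMIs 2293, 1411 and 2645, against 3971, 2845 and 4771 as reported. The comparison by Prl8a2 level within the Prl8a2-dominated spots was the least stable. Its 8 calls became 35 and 80 without scaling factors (totals without and with Prl8a2), 178 without the filter on low counts, 346 and 160 at Prl8a2 minimums of 40000 and 80000 CPM, 3 at 5000 UMIs per spot and 36 after thinning. Leaving out 1 library gave 0 to 197 calls, with 0 without replicates 1 and 2, 197 without replicate 3 and 11 without replicate 4. All 8 reported calls were among the 197, and 2 of them among the 11. Replicate 3 has 1 spot at the 80000 CPM minimum and drops out of that fit. The cause was not tested.

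The libraries pair the sets of spots because both sets lie on the same sections. Without the replicate block 3863, 2670, 4627 and 0 genes were called in the 4 comparisons, and 2 prolactin family genes were higher and none lower.

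Of 216 named gene results in 3202 refits, 2995 kept their direction and side of the threshold, 185 fell short of it, 9 passed it anew and 13 turned. With the trophoblast-rich spots left out of the other kept spots, an alternative chosen after seeing the data, Prl2a1, Trap1a and Prl7a1 had log2 fold changes of 0.298, 0.315 and 1.471. Prl7a1 was at 0.187 without the trophoblast limit and Msln at 0.077 with a 40000 CPM minimum. Ctla2a was at −0.287 and −0.419 without scaling factors (totals without and with Prl8a2), −0.038 without replicates 1 and 2, −0.579 at 80000 CPM and −0.153 after thinning. Gpx3 was at −0.171 and −0.302 without scaling factors and −0.57 at 80000 CPM. At that minimum the median over all genes shifted by −0.582. The mean share of Prl8a2-dominated spots ranged from 3.918% without replicates 1 and 2 to 11.26% at 40000 CPM.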
